A study of Mus musculus with 8 samples.

Results

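The arrays described here are the 4 of 8 in the series that were hybridised after transfection of B-DNA, 2 from cells without Tbk1 and 2 from cells with it. The labels placed each array in its arm. The arms were compared by the level of each gene 4 h after the stimulus, and not by its change from mock-transfected cells. All cells were mouse embryonic fibroblasts, cells grown out of embryo tissue, of the mixed strain C57BL/6 x 129Ola. The arm without Tbk1 held 1 array of Tbk1-/- Ikbke+/+ cells and 1 array of Tbk1-/- Ikbke-/- cells. The arm with Tbk1 held 1 array of Tbk1+/+ Ikbke+/+ cells and 1 array of Tbk1+/+ Ikbke-/- cells. The 2 arrays of an arm therefore shared a Tbk1 genotype and a treatment but differed in Ikbke genotype, and that difference counted as spread within the arm. The stimulus was poly(dA-dT)-poly(dT-dA), a synthetic double-stranded DNA in the B form. The remaining 4 arrays held the same genotypes 4 h after a mock transfection. How many embryos or cultures stood behind an array is not given in the sources used here, so the p-values speak only of spread among these arrays.

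Tbk1 encodes a serine/threonine kinase of the innate immune system. DNA in the cytosol is bound by sensors that act through the adaptor Sting1, which recruits Tbk1, and Tbk1 phosphorylates the transcription factor Irf3 so that it enters the nucleus and drives interferon genes. Secreted type I interferon then acts on its receptor and, through transcription factors that include Stat2 and Irf9, switches on the interferon-stimulated genes, whose promoters often carry an interferon-stimulated response element. Ikbke encodes a kinase closely related to Tbk1 with an overlapping set of substrates.

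The genes low without Tbk1 after B-DNA included 12 antiviral effectors and 7 interferon-induced GTPases, with Gbp2b on both lists, led by Ifit1, Rsad2 and Ifit3. Of 9341 genes that reached the floor of 122 on 1 or more of the 4 arrays, 35 were lower without Tbk1 and 0 were higher (limma, Benjamini-Hochberg adjusted p of 0.05 or less), which is 0.375% and 0.0% of the genes tested. Signals under this floor, set at the 40th percentile over the 8 scaled arrays, were raised to it for the test. At an unadjusted p under 0.05, 421 genes were lower and 435 higher. The 35 differences lay between -7.46 and -2.54 on the log2 scale, beside a median of 0.08 over all genes tested. All 35 also met a rule of size that needs no error model, in which the lower array of one arm was 2-fold or more above the higher array of the other and reached 244, or 2 times the floor. By that rule 217 genes were lower without Tbk1 (2.32%) and 51 higher (0.546%). Such genes are called separated, and nothing is tested in that count. With any 1 of the 4 arrays left out, the rule counted 330 to 429 lower and 140 to 513 higher genes, the highest of each without the Tbk1-/- Ikbke+/+ array.

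In 16 of the 35 genes both arrays without Tbk1 lay under the floor, and in 25 at least 1 did. Setting both to the floor removes the spread within that arm, which favours a call. In the other 10 genes all 4 arrays lay at or above the floor. Without any 1 of the 4 arrays the fit had 1 residual degree of freedom and called 0 genes in either direction, so the 35 calls rest on having 2 arrays in each arm. An exact permutation test of 2 against 2 arrays cannot go below a p of 0.333.

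Scaled signal of Tbk1 after B-DNA was 989 and 910.0 with Tbk1 (Tbk1+/+ Ikbke+/+ first, then Tbk1+/+ Ikbke-/-, an order kept below, as is Ikbke+/+ before Ikbke-/- in the arm without Tbk1) and 305 and 389.6 without. All 4 values were above 244 and the arms were separated, with a log2 difference of -1.46 (SE 0.23, adjusted p = 0.187). In mock cells it read 501 and 472 with Tbk1 and 226 and 290.0 without, so the arms did not overlap there but were not separated at 2-fold (difference -0.93). Each genotype read higher after B-DNA than in mock cells, by 0.98 and 0.95 on the log2 scale with Tbk1 and by 0.43 and 0.43 without. This rise did not differ between the arms past the limma threshold (adjusted p = 0.234). By this probe set the transcript was thus not absent from the arm without Tbk1. A further probe set for it read 131 and 181 with Tbk1 and 63.1 and 47.7 without (difference -0.33). There both arrays without Tbk1 lay under the floor. Whether the probes of either set lie inside the deleted part is not given in the sources used here. Ikbke lay under the floor on every array and checks nothing. The Ikbke genotypes also differed in sex-linked transcripts, which cannot be told apart from Ikbke. Xist, transcribed from the inactive X chromosome, read 3766 and 161 with Tbk1 and 3149 and 181 without, and the Y-linked Eif2s3y read 3.63 and 236 with Tbk1 and 2.22 and 209 without. Each arm held 1 array of either kind. Deposited 2% trimmed means were 159 to 226 on the B-DNA arrays and 140 to 255 on all 8, and each array was scaled to 500.

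Most defining fibroblast genes were above the floor in both arms. All 37 matrix and fibroblast genes with a probe set reached it on 1 or more B-DNA arrays, 35 on all 4. On each B-DNA array 34 to 37 of them reached 244. Levels of single members varied between arrays, as for Lum at 1818 and 5305 with Tbk1 and 87.1 and 4304 without. Macrophage markers moved with 1 array. The summed signal of the 19 of 25 macrophage markers that reached the floor was 6742 on the Tbk1+/+ Ikbke+/+ array and 2065, 2061 and 1772 on the Tbk1+/+ Ikbke-/-, Tbk1-/- Ikbke+/+ and Tbk1-/- Ikbke-/- arrays. Of these markers 12 reached 244 on the Tbk1+/+ Ikbke+/+ array and 1 or 2 on the others. Their part in the Tbk1 difference was not tested. No macrophage marker was called or separated. Leaving that array out of the rule of size can only add genes, so the rule cannot show what part the macrophage signal has. On the Tbk1+/+ Ikbke-/- array the macrophage genes Lyz1 and C1qb lay under the floor at 66.3 and 18.1, and Lyz2 and Mpeg1 above it at 205 and 233. Mpeg1 read 276 and 233 with Tbk1 and 15.5 and 14.1 without.

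Antiviral effectors, the proteins that block steps of a viral life cycle, held the most calls of any list. All lists were written with earlier results of these data known, and their counts only describe. Of 43 listed, 36 had a probe set and reached the floor. After B-DNA 12 of them were lower by limma and 29 were separated and lower, none was higher by either rule, and their median log2 difference was -3.03. Ifit1, an RNA-binding inhibitor of translation, read 23925 and 21838 with Tbk1 and 104 and 138 without. Both arrays with Tbk1 were at least 158-fold above both without, and the log2 difference was -7.46 (SE 0.21, adjusted p = 0.0133). Its relative Ifit2 read 8315 and 10861 with Tbk1 and 15.5 and 127 without (-6.25, adjusted p = 0.0133), and Ifit3 read 19679 and 24582 with Tbk1 and 35.4 and 265 without (-6.93, adjusted p = 0.0308). The arms did not overlap in any of these genes.

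Rsad2 encodes viperin, an enzyme that makes a chain-terminating nucleotide, and Cmpk2 encodes a nucleotide kinase that supplies its substrate. Rsad2 read 20459.7 and 23165 with Tbk1 and 88.6 and 161 without, a log2 difference of -7.28 (SE 0.24, adjusted p = 0.0133). Cmpk2 read 7335 and 7233 with Tbk1 and 17.9 and 16 without (-5.90, SE 0.19, adjusted p = 0.0133). For both genes the arrays without Tbk1 lay near or under the floor and the arms were far apart.

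The myxovirus resistance GTPase Mx1 read 7238 and 10191 with Tbk1 and 57.8 and 62.2 without, a log2 difference of -6.14 (SE 0.26, adjusted p = 0.0133). Among the 2'-5' oligoadenylate synthetase family, which activates the nuclease RNase L, Oasl1 read 8462 and 6126 with Tbk1 and 111 and 91.4 without (-5.88, adjusted p = 0.0133). Oas1a and Oasl2 were lower by limma as well, whereas Oas1b and Oas2 were separated without passing it. Rtp4, which encodes an interferon-induced inhibitor of viral replication, read 5097 and 8860.2 with Tbk1 and 14.4 and 130.3 without (-5.74, adjusted p = 0.0289), and a further probe set for it, which reached 270 at most, had a difference of -0.57. The other 7 of the 36 effectors, among them Ifitm1, Ifitm2 and Ifitm3, which block viral entry, were neither called nor separated, with differences of -0.02, -0.30 and -1.24 for these 3.

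**Figure D1:**
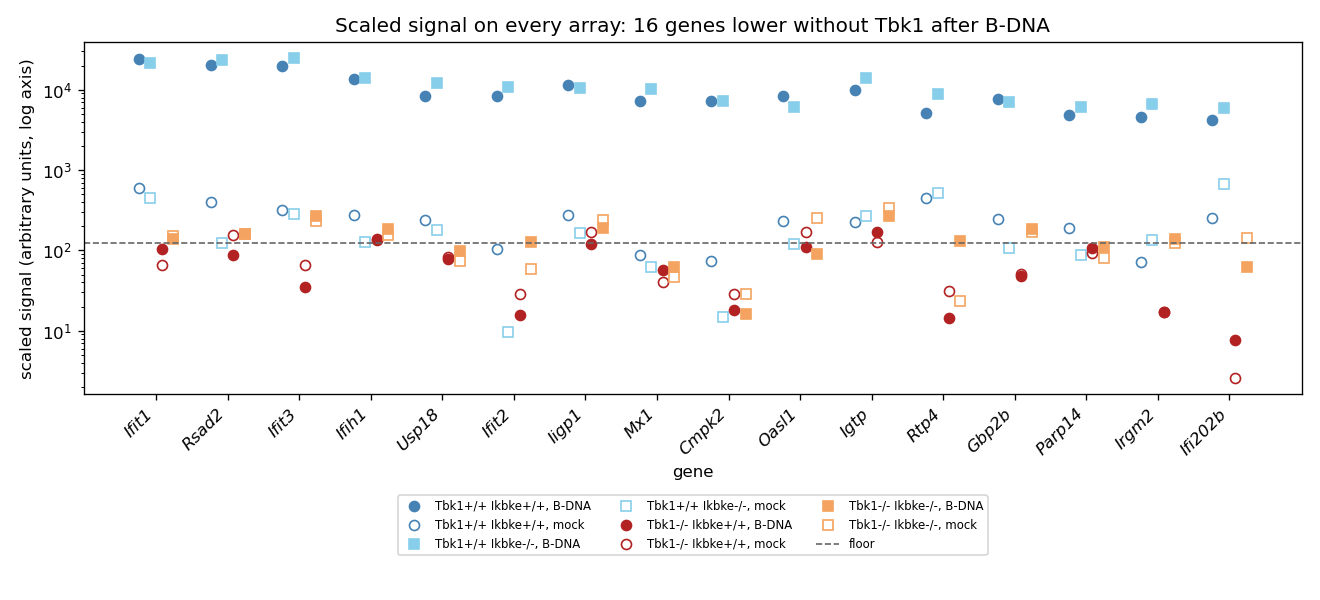
Scaled signal (log axis, arbitrary units) of the 16 genes with the most negative log2 difference among those past the limma threshold, on each of the 8 arrays: filled symbols are B-DNA arrays, open symbols mock arrays, blue with Tbk1, red and orange without, circles Ikbke+/+ and squares Ikbke-/-, and the dashed line is the floor. For every gene the 2 filled blue symbols lie at 4195 or more and the 2 filled red and orange symbols at 265 or less.

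The interferon-induced GTPases, which attack the vacuoles of intracellular pathogens, showed the most negative median of the lists. Of 11 with a probe set, 10 reached the floor, 7 were lower by limma, all 10 were separated and lower, and the median log2 difference was -5.29. Iigp1 read 11596 and 10549.8 with Tbk1 and 121 and 192 without (-6.18, SE 0.30, adjusted p = 0.0174). Igtp read 9830.4 and 14114 with Tbk1 and 168 and 265 without (-5.80, SE 0.35, adjusted p = 0.0291). For Igtp both arrays without Tbk1 lay within the range of the mock arrays, which read 225 and 271 with Tbk1 and 127 and 335 without. Irgm2 and the guanylate-binding proteins Gbp2b, Gbp3 and Gbp7 and the related Ifi47 were also lower by limma. Gbp2 read 13360.4 and 13755 with Tbk1 and 307 and 128 without, and missed the threshold narrowly (difference -6.10, SE 0.48, adjusted p = 0.0516); its 2 arrays without Tbk1 differed from each other by more than 2-fold. These families hold near-identical copies, and signal shared between their probe sets cannot be told apart here.

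Isg15 conjugation, in which a ubiquitin-like tag is attached to proteins, was represented by 6 genes, of which 2 were lower by limma and 3 were separated (median -1.30). Usp18, the protease that removes the tag and also dampens interferon receptor signalling, read 8266 and 12216 with Tbk1 and 79.3 and 97.3 without (-6.36, SE 0.27, adjusted p = 0.0133). Uba7, the activating enzyme of the tag, read 725 and 786 with Tbk1 and 29.9 and 109 without (-2.63, adjusted p = 0.0475). The more general conjugating enzymes were not separated: Ube2e1 read 1203 and 1746 with Tbk1 and 1183 and 607 without, and Ube2e2 362 and 492 with Tbk1 and 525 and 713 without. Isg15 itself was not analysed here.

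Among 20 PARP and Trim genes with a probe set, 19 reached the floor, 3 were lower by limma and 11 were separated and lower (median -1.30). Parp14 and Parp9 encode enzymes of ADP-ribose signalling known as interferon-stimulated genes. Parp14 read 4875 and 6117 with Tbk1 and 108 and 109.6 without (-5.48, adjusted p = 0.0133). Parp9 stayed above the floor on all 4 arrays at 5839.9 and 7497 with Tbk1 and 379 and 446 without (-4.01, SE 0.24, adjusted p = 0.0291). The cytosolic antibody receptor Trim21 was the third to pass. Trim25, which activates the sensor RIG-I, read 4989 and 6299 with Tbk1 and 453 and 160.4 without and did not pass (-4.38, SE 0.57, adjusted p = 0.125). The PARP genes of DNA repair, Parp1 and Parp2, had differences of 0.16 and 0.20 and were neither called nor separated.

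Sensors of nucleic acid were partly in the group. Of 31 with a probe set, 25 reached the floor, 4 were lower by limma and 10 were separated and lower, with a median of -0.27. Ifih1, which encodes the double-stranded RNA sensor MDA5, was at or above the floor on all 4 arrays, at 13655 and 14101 with Tbk1 and 139 and 187 without. The arms were 73.1-fold apart at their nearest arrays, with a log2 difference of -6.43 (SE 0.24, adjusted p = 0.0133). Tlr3, an endosomal sensor of double-stranded RNA, read 2185 and 2427 with Tbk1 and 93 and 90.7 without (-4.24, adjusted p = 0.0171). Tlr2, a receptor for bacterial lipoproteins, read 5295 and 5373 with Tbk1 and 619 and 792 without (-2.93, adjusted p = 0.0497). Zbp1, a sensor of left-handed nucleic acid, read 988 and 793 with Tbk1 and 9.53 and 14.1 without (-2.86, adjusted p = 0.0497). The adaptor Sting1 behaved otherwise, at 1199 and 307 with Tbk1 and 429.8 and 144 without, so that its arms overlapped (difference -1.29, SE 0.90, adjusted p = 0.754).

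Genes of interferon signalling itself were lower in part. Of 33 genes with a probe set, 30 reached the floor, 2 were lower by limma and 7 were separated and lower (median -0.41). Irf7, the transcription factor that amplifies type I interferon production, read 4150.2 and 4045 with Tbk1 and 177 and 185 without (-4.50, SE 0.19, adjusted p = 0.0133). Stat2, part of the complex that binds the response element, read 2007 and 2282 with Tbk1 and 202 and 224 without (-3.33, SE 0.21, adjusted p = 0.0306). Both genes were above the floor on all 4 arrays. The feedback inhibitor Socs1 read 2198 and 2216 with Tbk1 and 203 and 119 without (-3.81, adjusted p = 0.0608), and Irf9 read 797 and 1422 with Tbk1 and 157 and 192 without (-2.62, adjusted p = 0.144); both were separated without passing limma. Irf3, the factor that Tbk1 phosphorylates, read 1024 and 1068 with Tbk1 and 1024 and 956 without, a difference of -0.08 (SE 0.20). Ifnb1, the interferon beta gene, read 221 and 194 with Tbk1 and 75.1 and 92 without; both values with Tbk1 were the higher ones but lay under 244, and its difference of -0.76 did not pass (SE 0.20, adjusted p = 0.406).

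Irf1, an interferon-induced factor that is also a target of NF-kB, did not divide by Tbk1. It read 5653 and 4379 with Tbk1 and 1044 and 4743 without, beside 1299.6 and 1406 with Tbk1 and 1005 and 1569 without on the mock arrays. The Tbk1-/- Ikbke+/+ array was low and the Tbk1-/- Ikbke-/- array as high as those with Tbk1 (difference -1.16, SE 0.80, adjusted p = 0.749).

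Chemokines and cytokines split. Of 46 with a probe set, 36 reached the floor, 1 was lower by limma, 11 were separated and lower and 1, Cxcl12, was separated and higher (median -0.90). Cd274, the gene of the immune checkpoint ligand PD-L1, read 2755 and 4425 with Tbk1 and 13.1 and 42.4 without (-4.84, SE 0.31, adjusted p = 0.0306). Cxcl10, a chemokine that draws T cells, read 16599.8 and 18387 with Tbk1 and 328 and 108 without, and Ccl5 read 15819 and 15614 with Tbk1 and 204 and 545 without. Their differences of -6.45 (SE 0.54) and -5.56 (SE 0.53) were as large as those of called genes but fell short of the threshold (adjusted p = 0.0595 and 0.0751). In both genes the 2 arrays without Tbk1 differed from each other by more than 2-fold after the floor. The monocyte chemokines Ccl2 and Ccl7 were separated with more signal left in the arm without Tbk1: Ccl2 read 21927 and 13721 with Tbk1 and 3096 and 3161 without (-2.47, adjusted p = 0.115), and Ccl7 10052 and 5433 with Tbk1 and 737 and 958 without (-3.14, adjusted p = 0.115). Il6 read 1861 and 772 with Tbk1 and 374 and 155 without and was separated by 2.06-fold at its nearest arrays (-2.31, adjusted p = 0.437).

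Genes of MHC class I presentation, which show peptides from inside the cell to T cells, were lower in part. Of 19 with a probe set, 16 reached the floor, 1 was lower by limma and 8 were separated and lower (median -1.78). Tap1, a subunit of the peptide transporter, stayed above the floor on all 4 arrays at 4199 and 5701 with Tbk1 and 288 and 368 without (-3.91, SE 0.27, adjusted p = 0.0396); a further probe set, which reached 246 at most, had a difference of -0.86. The inducible proteasome subunit Psmb8 read 1892 and 3537 with Tbk1 and 186 and 13.2 without (-4.10, adjusted p = 0.0884), and Psmb9 and Psmb10 were separated as well, at -3.64 and -2.70. B2m, the shared light chain, was high on every array at 15841 and 20277 with Tbk1 and 9216 and 10438 without (-0.87, SE 0.24, adjusted p = 0.418). All 29 constitutive proteasome genes lay above the floor on all 4 arrays, 0 were called or separated, and their median difference was 0.04, close to that of all genes.

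NF-kB targets, immediate early genes and stress genes are other programmes a DNA transfection can set off. Their separated members are counted beside the shares of all genes tested, 2.32% lower and 0.546% higher, and lay near them. Among 28 NF-kB genes that reached the floor 0 were called and 1 was separated (median -0.38), the matrix metalloproteinase Mmp13, at 808 and 566 with Tbk1 and 3.54 and 8.16 without (-2.47, adjusted p = 0.0914). The inhibitor Nfkbia was high in both arms at 12591 and 11949 with Tbk1 and 9799 and 11073 without (-0.24, SE 0.20). Vcam1, an adhesion molecule, read 8523 and 5384 with Tbk1 and 838 and 3401 without, not separated at 2-fold (-2.0, SE 0.77, adjusted p = 0.566). Of 33 immediate early genes and 22 unfolded protein and heat shock genes that reached the floor, 0 were called or separated, with medians of -0.50 and -0.03. The growth factor gene Hbegf, on the immediate early list, was low on the Tbk1-/- Ikbke-/- array. It read 2873 and 3223 with Tbk1 and 3617 and 226 without, and its mock values of 4619 and 3959.7 with Tbk1 and 5482 and 257 without showed the same low array.

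Of 27 cell death genes that reached the floor, 1 was lower by limma and 3 were separated (median -0.29). The death receptor Fas was above the floor on all 4 arrays at 1049 and 1015 with Tbk1 and 175 and 181 without (-2.54, SE 0.19, adjusted p = 0.0483). Daxx, a histone H3.3 chaperone that also binds Fas, read 5415 and 5400.5 with Tbk1 and 1214 and 1212 without (-2.16, SE 0.19, adjusted p = 0.0691), with near-equal arrays within each arm. The inflammatory caspase gene Casp4 read 651 and 946 with Tbk1 and 136 and 138 without (-2.52, adjusted p = 0.0914). In the cholesterol list 0 of 27 genes were called and 1 was separated: Ch25h, which makes the antiviral oxysterol 25-hydroxycholesterol, read 2686 and 836 with Tbk1 and 145 and 160.1 without (-3.30, SE 0.62, adjusted p = 0.249). Its neighbours in the list, the synthesis enzymes, had arms that met or overlapped. The 37 fibroblast matrix genes had 0 calls and a median of -0.11.

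**Figure D2:**
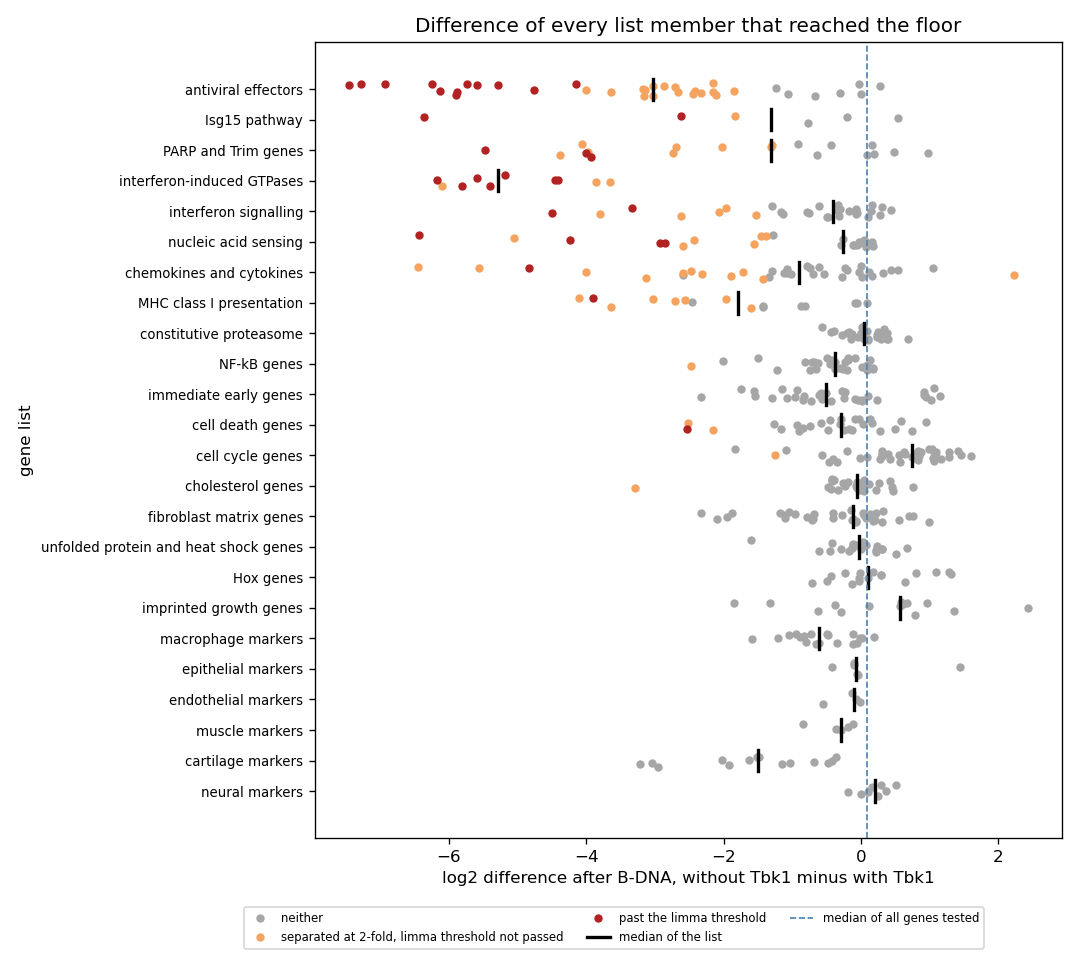
Log2 difference after B-DNA, without minus with Tbk1, of every list member that reached the floor, 1 line of points per gene list, shifted vertically only to keep points apart. Red points passed the limma threshold, orange points were separated at 2-fold without passing it, grey points did neither, black bars are list medians and the dashed line is the median of all 9341 genes tested, 0.08. The medians of the antiviral effectors and interferon-induced GTPases lie at -3.03 and -5.29, and that of the constitutive proteasome at 0.04.

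Of the 35 called genes, 32 were on one of the lists and 3 on none. Ifi202b, a DNA-binding protein of the interferon-inducible p200 family, read 4195 and 5859 with Tbk1 and 7.75 and 61.8 without (-5.34, SE 0.25, adjusted p = 0.0172). The others, chosen after their values were seen, were Lipg, an endothelial lipase, at 3571 and 2585 with Tbk1 and 161 and 116 without (-4.44, adjusted p = 0.0308), and the lipocalin Apod at 1350.1 and 1848 with Tbk1 and 18.2 and 38.9 without (-3.69, adjusted p = 0.0343). Of the 217 separated genes 94 were on a list and 123 on none. The nearest arrays of the 2 arms were 4-fold or more apart in 83 of the 217, 8-fold in 45, 16-fold in 29 and 32-fold in 20. In 126 of them all 4 arrays lay at or above the floor, and in 58 both arrays without Tbk1 were under it. Where another probe set of the same gene reached 244 (68 genes), its difference had the same sign in 67.

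Promoters bear on these genes because the response element is a known sequence. RefSeq windows from 250 bases before to 50 bases after the start (GRCm38.p6) were at hand for 7541 of the 9341 genes tested, 1556 of them with more than 1 window, and a gene was counted once. The core GAAANNGAAA was searched on both strands. It was in a window of 3.83% of those genes, in 43 of 165 separated lower genes (26.1%), in 1 of 39 separated higher genes (2.56%), and in 12 of the 26 called genes with a window (46.2%). The gamma-activated site TTCNNNGAA was in 8.26% of all, 15.8% of the lower and 10.3% of the higher genes, and the NF-kB consensus in 6.5%, 11.5% and 10.3%. Among the 26 called genes with a window, 7 held the gamma-activated site (26.9%) and 3 the NF-kB consensus (11.5%). Matches of different motifs may overlap each other. A match describes letters, not a bound site. Stretches from 5 called genes follow to show the core in place. They were chosen among the called genes that hold it, after the matches were known. Every match of the core upstream of the start is in capitals, and the gene's strand is read 5′ to 3′. A match on the other strand reads as TTTCNNTTTC.
Ifit1, chr19:34640755-34640843, plus strand, GRCm38.p6: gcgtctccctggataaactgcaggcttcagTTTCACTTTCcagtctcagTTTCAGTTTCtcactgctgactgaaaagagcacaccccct
Ifit3, chr19:34583343-34583446, plus strand, GRCm38.p6: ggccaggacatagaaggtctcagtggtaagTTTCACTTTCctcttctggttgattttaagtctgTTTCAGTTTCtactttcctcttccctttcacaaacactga
Rsad2, chr12:26456533-26456602, minus strand, GRCm38.p6: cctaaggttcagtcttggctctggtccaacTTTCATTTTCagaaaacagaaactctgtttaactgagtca
Igtp, chr11:58199492-58199555, plus strand, GRCm38.p6: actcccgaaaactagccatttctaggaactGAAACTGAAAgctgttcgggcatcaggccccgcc
Irgm2, chr11:58214883-58214952, plus strand, GRCm38.p6: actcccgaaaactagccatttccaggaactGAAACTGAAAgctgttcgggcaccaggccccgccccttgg

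Ifit1 and Ifit3 each held 2 matches before the start of the window's transcript, between 76 and 104 bases upstream in Ifit1 and between 113 and 156 in Ifit3. The Ifit3 stretch lies past the outermost start of that gene, at 34583119, so its distances refer to another start farther inside the gene. Rsad2 held 1, on the other strand, as were the matches of Ifit1 and Ifit3. The stretches of the GTPase genes Igtp and Irgm2 share most of their letters, and each held 1 match. The letters of the core are not in the windows of the other 14 called genes that had one, among them Ifit2, a relative of Ifit1 and Ifit3, and Cmpk2, Irf7, Oasl1 and Oasl2.

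Genes lower without Tbk1 often lay side by side. Of 216 separated lower genes with a position in the RefSeq table, 60 (27.8%) had another within 200 kb, beside 688 of all 9327 positioned genes (7.38%) that had a separated lower gene that near. The runs included Ifit1, Ifit2 and Ifit3 on chromosome 19, Gbp2, Gbp2b, Gbp3 and Gbp7 on chromosome 3, Rsad2 and Cmpk2 on chromosome 12, Tap1, Tap2, Psmb8 and Psmb9 on chromosome 17, and Mx1 and Mx2 on chromosome 16. These genes are duplicated families or share a region, so neighbours are not independent of each other. Genes beside a targeted gene can keep alleles of the strain in which it was targeted, and 24 genes lay within 5 Mb of Tbk1 on chromosome 10. Of 18 tested, 0 were called or separated, beside 0.375% called and 2.87% separated over all genes tested. With so few genes, 0 cannot be told apart from those shares. Among the 18, 2 had an unadjusted limma p under 0.05, and the median difference was -0.09.

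Genes higher without Tbk1 were fewer and their distances smaller. None passed limma, and of the 51 separated genes 3 had arms 4-fold or more apart. In 35 of them all 4 arrays were at or above the floor, the median difference was 1.66, and 1 was on a gene list. Fzd6, a receptor for Wnt ligands, read 106 and 87.8 with Tbk1 and 736 and 605 without, at least 4.95-fold apart (2.45, SE 0.22, adjusted p = 0.0687). Its mock values were 211 and 179 with Tbk1 and 461 and 210.3 without, so the arrays with Tbk1 were lower after B-DNA than in mock cells. Tead2, a transcription factor of the Hippo pathway, read 124 and 141 with Tbk1 and 478 and 639.8 without (2.06, adjusted p = 0.112), beside mock values of 314 and 211 with Tbk1 and 269.8 and 581 without. Amot, a junction protein that binds the Hippo effector Yap, read 311 and 385 with Tbk1 and 1071 and 1085 without (1.64, adjusted p = 0.13), and 2 further probe sets for it had differences of -0.04 and 1.10.

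Jade1, a subunit of a histone acetyltransferase complex, read 261 and 198 with Tbk1 and 989.8 and 1351 without (2.35, SE 0.28, adjusted p = 0.111) and 542 and 493 with Tbk1 and 655 and 832 without on the mock arrays. After B-DNA the arrays with Tbk1 were the low ones and those without were the high ones, with the mock arrays between them. Zbtb22 read 138 and 133 with Tbk1 and 391 and 468 without, beside 384 and 327 with Tbk1 and 398 and 360.1 without in mock cells. Pgpep1, a peptidase, read 239 and 223 with Tbk1 and 710.2 and 739 without, beside 463 and 373 with Tbk1 and 820.2 and 743 without. In both genes the arrays with Tbk1 lay below every mock array. Mtss1, an actin-binding membrane protein, read 28.8 and 23.5 with Tbk1 and 500.4 and 496 without (2.03, adjusted p = 0.0728), and 2 further probe sets had smaller differences of 1.09 and 0.11. Among separated higher genes with another probe set at 244 or more (19), 16 had the same sign there, 9 were past 1 on the log2 scale and 3 had the opposite sign in at least 1 set.

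**Figure D3:**
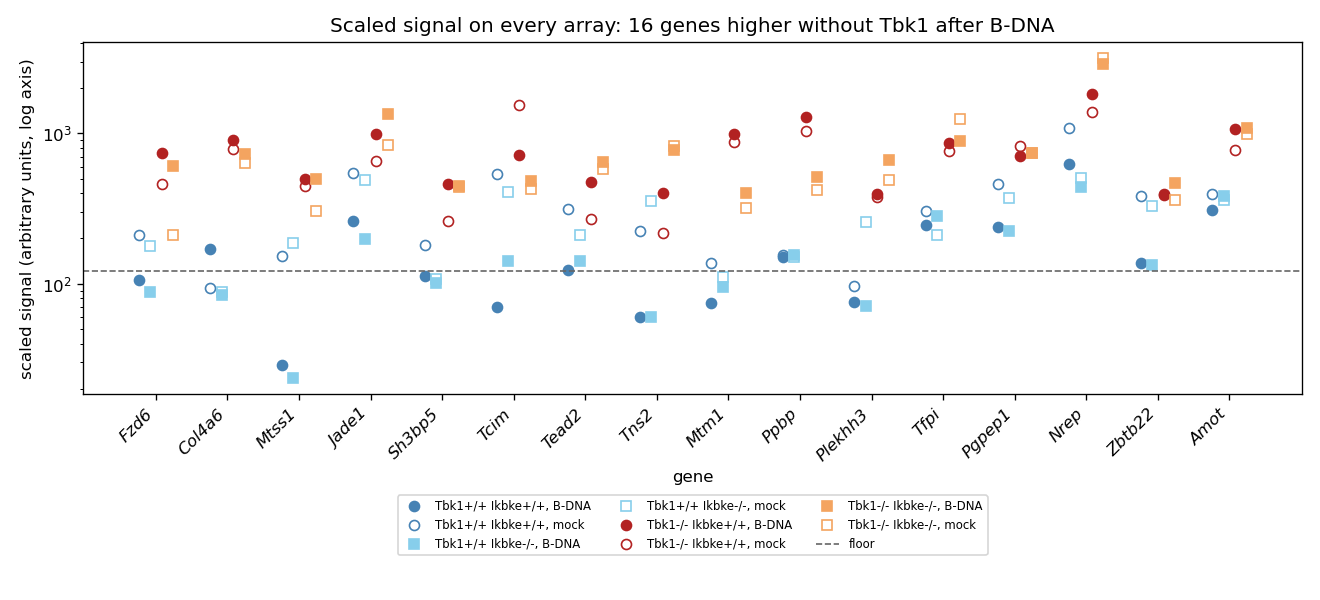
Scaled signal (log axis, arbitrary units) of the 16 genes with the widest gap between arms among those separated and higher without Tbk1, symbols as in the plot of genes lower without Tbk1. The 2 filled blue symbols lie below the 2 filled red and orange symbols for each gene. The open symbols divide the same way for 11 of the 16 genes, and for Col4a6, Mtm1, Ppbp and Tfpi they are separated at 2-fold.

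Since levels were compared and not changes, part of a difference can be present before the stimulus. In the mock arrays, which share no array with the comparison above, 43 of 9169 genes were separated and lower without Tbk1 (0.469%) and 10 higher (0.109%). The B-DNA list shared 29 of its 217 lower genes with them (13.4%, or 67.4% of the 43) and 5 of its 51 higher genes (9.80%, or 50% of the 10). No gene was separated in opposite directions. The median mock difference of the 217 genes was -0.25 and of the 51 genes 0.62, and 48 of the 51 had a mock difference above 0.

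Of the 29, 4 were on the lists of antiviral effectors, interferon-induced GTPases or chemokines and cytokines. These lists held 36, 10 and 36 of the 9341 genes tested after B-DNA, so 4 of 29 was a larger share than among all genes tested. Of the 217 genes separated and lower after B-DNA, from which the 29 come, these lists held 29, 10 and 11. Gbp2b is counted there under both effectors and GTPases. Beside those 217 genes, 4 of 29 was a smaller share. Ifit1 read 600.0 and 454 with Tbk1 and 65.1 and 149 without in mock cells, Cxcl10 439.7 and 392 with Tbk1 and 161 and 16.4 without, and Rtp4 449.7 and 522 with Tbk1 and 31.6 and 23.6 without. Their mock differences were -1.95, -1.56 and -1.99, far smaller than after B-DNA. The fourth was Cxcl14, at 825 and 942 with Tbk1 and 125 and 115 without in mock cells and at 581 and 930.1 with Tbk1 and 63.6 and 87.9 without after B-DNA. Socs2, on the interferon signalling list, was also among the 29, with differences of -2.07 after B-DNA and -1.30 in mock cells. Of the remaining genes, those named next were chosen after their values were seen. Aqp1, a water channel, read 2701 and 2062 with Tbk1 and 95.3 and 644 without after B-DNA and had differences of -3.07 there and -3.27 in mock cells. Col18a1, a basement membrane collagen, had -1.81 and -2.19, and the cyclin Ccnd1 -1.26 and -1.34. Sod3, the extracellular superoxide dismutase, had -2.58 and -2.52. Over the 29 genes the median difference was -2.11 after B-DNA and -1.99 in mock cells. Among the higher genes Col4a6, Mtm1, Ppbp, Tfpi and Sfrp1 were separated in both; Ppbp, a platelet chemokine, read 151 and 156 with Tbk1 and 1278 and 512 without after B-DNA and 155 and 151 with Tbk1 and 1034 and 423 without in mock cells.

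**Figure D4:**
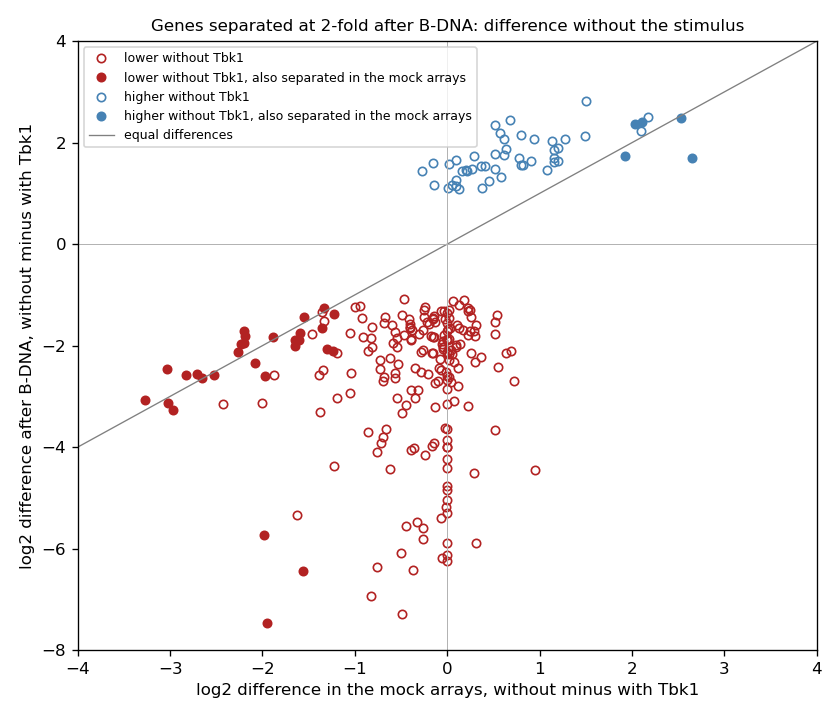
Log2 difference without minus with Tbk1 after B-DNA (vertical) against that in the mock arrays (horizontal) for the 268 genes separated at 2-fold after B-DNA, red lower and blue higher without Tbk1, filled where the gene was also separated in the mock arrays; the line marks equal differences. The 29 filled red points have medians of -2.11 and -1.99 and include 3 far below the line, Ifit1, Cxcl10 and Rtp4.

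Taking the mock difference away gave a test of what the stimulus added. The log2 ratio of B-DNA to mock was formed for each genotype and compared between 2 genotypes without and 2 with Tbk1. Of 9626 genes, 99 had a lower ratio without Tbk1 (1.03%) and 5 a higher ratio (0.0519%; limma, adjusted p of 0.05 or less). Without either array pair of any 1 genotype 0 were called. Of the named genes 39 passed. The difference of differences was -6.79 for Rsad2 (SE 0.65, adjusted p = 0.0336), -5.51 for Ifit1 (SE 0.18, adjusted p = 0.00481) and -5.90 for Cmpk2 (SE 0.16, adjusted p = 0.00481). Genes that had missed the threshold on levels passed it here, among them Cxcl10 (-4.88, SE 0.39, adjusted p = 0.0243), Ccl5 (-5.11, adjusted p = 0.0243), Gbp2 (-5.60, adjusted p = 0.0243), Psmb8 (-3.34, adjusted p = 0.00894) and Daxx (-2.17, adjusted p = 0.0243). Tlr2 and Fas passed on levels and not on ratios, at -1.88 (adjusted p = 0.105) and -1.49 (adjusted p = 0.0725); whether the tests differ for a gene was not tested.

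Ccne1, the gene of cyclin E1, which drives entry into S phase, passed on ratios without being separated on levels. It read 2003 and 638 with Tbk1 and 473 and 213 without after B-DNA and 353 and 143 with Tbk1 and 419 and 229.6 without in mock cells. Both arrays with Tbk1 read above the mock array of their genotype, both without read close to theirs, and the difference of differences was -2.30 (SE 0.22, adjusted p = 0.0323). The difference in level was -1.83 (SE 0.73, adjusted p = 0.577), and within each arm the Ikbke-/- array was the lower one with and without the stimulus. The 5 genes with a higher ratio without Tbk1 were Jade1, Cdc42ep1, Cdr2l, Inhba and Morc4, of which Jade1 and Cdc42ep1 were also separated on levels. Cdc42ep1, an effector of the GTPase Cdc42, read 391 and 397 with Tbk1 and 927 and 1222 without after B-DNA and 786 and 769 with Tbk1 and 575 and 724 without in mock cells (1.70, SE 0.16, adjusted p = 0.0323).

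The spread within the arms sets how far the level difference can be read. Between the 2 arrays with Tbk1, 621 of 9341 genes (6.65%) differed by 2-fold or more with the higher at 244 or more, and between the 2 without, 1270 (13.6%) did. The Tbk1 pairs differed in 985 genes (10.5%) in Ikbke+/+ cells, 427 higher and 558 lower without Tbk1, and in 1659 (17.8%) in Ikbke-/- cells, 971 higher and 688 lower. At 2-fold the counts between arms and within arms were thus of the same order. At 8-fold, 78 and 97 genes were lower without Tbk1 in the 2 pairs and 8 and 13 higher, beside 6 to 26 in either direction within an arm. The Tbk1 differences of the 2 pairs, which share no array, had a Pearson correlation of 0.34 and a Spearman correlation of 0.12 across the 9341 genes, and a Pearson correlation of 0.25 over the 7002 genes at or above the floor on all 4 arrays. Genes share arrays and scaling and are not independent replicates, and no p is given.

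**Figure D5:**
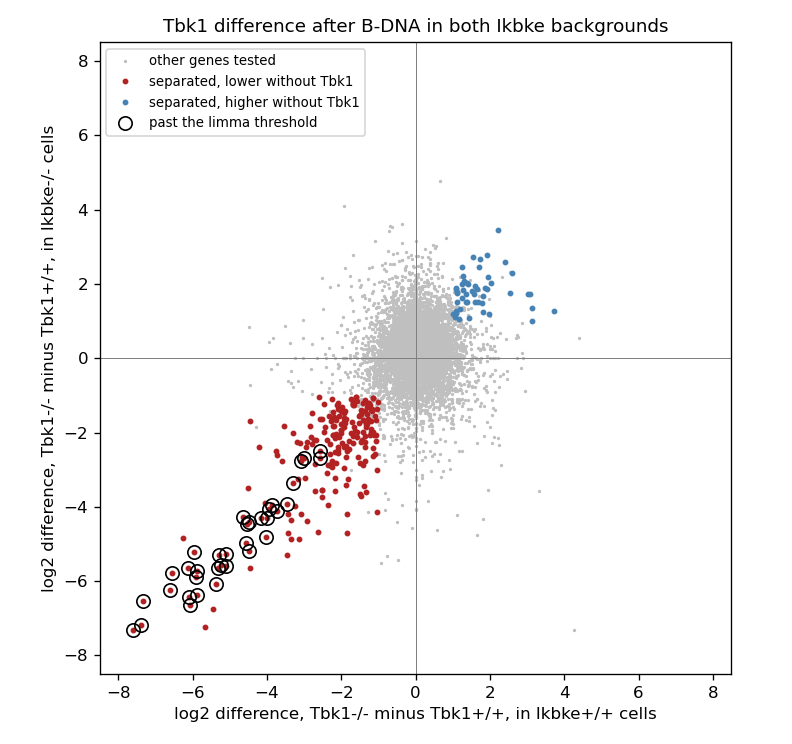
Log2 difference after B-DNA between the Tbk1-/- and the Tbk1+/+ array in Ikbke+/+ cells (horizontal) and in Ikbke-/- cells (vertical), 1 point per gene for 9341 genes; red and blue points were separated at 2-fold and lower or higher without Tbk1, and rings mark the 35 past the limma threshold. The rings lie below 0 on both axes, and the grey points spread along both axes.

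Of 438 genes that differed by 2-fold in both pairs, 255 were lower without Tbk1 in both, 86 higher in both, 46 lower in Ikbke+/+ and higher in Ikbke-/- cells and 51 the other way. Cxcl1, a neutrophil chemokine, was one of the 46: it read 967 and 278 with Tbk1 and 291 and 1078 without. The Tbk1+/+ Ikbke+/+ and Tbk1-/- Ikbke-/- arrays were the high ones, and the pooled difference of 0.11 (SE 0.93) hides that. Arc, an immediate early gene, was one of the 51, at 397 and 2262 with Tbk1 and 859.7 and 18.2 without, and so was Msmo1, an enzyme of cholesterol synthesis, at 599 and 1964 with Tbk1 and 2468 and 893 without. These opposite moves were not tested.

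Several lists spread widely between the 2 arrays of an arm, and some of their members also divided by Tbk1. Of 15 cartilage markers, 14 reached the floor, 0 were called or separated, and the median was -1.50 after B-DNA and -1.45 in mock cells. All 14 had a difference below 0 after B-DNA, and 1, Acan, was separated and lower without Tbk1 in the mock arrays. Acan read 795 and 4887 with Tbk1 and 463 and 116 without after B-DNA. The Tbk1+/+ Ikbke-/- array stood apart: their summed signal was 81589 on it against 9734 on the Tbk1+/+ Ikbke+/+ array and 13379 and 4701 on the arrays without Tbk1. Matn4, a cartilage matrix protein, read 233 and 9343 with Tbk1 and 70 and 206 without, and Col2a1, the main cartilage collagen, 3516 and 25950.4 with Tbk1 and 5232 and 1047 without. Omd and Srpx, matrix genes among the separated lower ones, were also highest on that array, Omd at 440.4 and 3167 with Tbk1 and 111 and 37.7 without and Srpx at 704 and 2803 with Tbk1 and 85.7 and 212 without; the part of the cartilage signal in them was not tested.

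Among 43 cell cycle genes 41 reached the floor, 0 were called and 1, Ccnd1, was separated and lower, with a median of 0.74 after B-DNA and 0.62 in mock cells. Top2a, a topoisomerase of dividing cells, read 1347 and 497 with Tbk1 and 1248 and 3190.3 without, lowest on the Tbk1+/+ Ikbke-/- array and highest on the Tbk1-/- Ikbke-/- array, with overlap between the arms (1.29, SE 0.72, adjusted p = 0.695). Imprinted growth genes (14 reached the floor, 0 called, median 0.57) varied as widely, for example Peg3 at 257 and 1193 with Tbk1 and 1494 and 5978 without, and Igf2 at 6257 and 5231 with Tbk1 and 611 and 4151 without. The arms did not overlap in either gene, with Peg3 higher and Igf2 lower without Tbk1, but neither was separated at 2-fold. Of 17 Hox genes that reached the floor 0 were called or separated; Hoxb9, a position gene of the trunk, read 27.1 and 10.9 with Tbk1 and 205 and 447 without after B-DNA and 13.9 and 9.27 with Tbk1 and 181 and 448 without in mock cells. Both arrays without Tbk1 were the higher ones with and without the stimulus. Epithelial, endothelial, muscle and neural markers had 0 calls, and of 12 epithelial markers 0 or 1 reached 244 on each B-DNA array; Krt19, a keratin, read 30.4 and 9.4 with Tbk1 and 901 and 10 without, high on the Tbk1-/- Ikbke+/+ array and under the floor on the others.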

How the data were processed

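Total RNA of 8 samples was measured on one-colour Affymetrix arrays, 1 per genotype and treatment. Per the labels and the submitters' processing notes, the authors deposited MAS5 signals, an intensity for each probe set on a linear scale. How these were scaled, called as present or pooled from cultures is not stated there. Probe set names matched the annotation of a newer array type than the design text gives, and gene symbols come from that annotation. Of 22626 probe sets that are not controls, 20380 had 1 symbol, 691 several and 1555 none. Symbols were updated through RefSeq (GRCm38.p6).

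Each array was scaled to a 2% trimmed mean of 500, a factor of 2.22 to 3.14 on the B-DNA arrays. Each of 12393 genes took the probe set with the highest mean over 8 arrays. Signals below 122, the 40th percentile, were set to it before log2. Levels were compared with limma 3.58.1 in R 4.3.3 (2 against 2 arrays, 2 residual degrees of freedom, prior 2.09, two-sided, Benjamini-Hochberg over 9341 genes), and ratios likewise over 9626 genes; both were tested on simulated data. Named genes were the 16 most changed in each direction past the threshold with separated arms, filled by the gap between arms, up to 5 members per gene list, and a fixed set. The comparison, members and lists were chosen with earlier results of these data known. The alternatives were other scalings, floors, filters, probe set choices, an Ikbke term, all 8 arrays in the fit, and each array left out.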

Additional observations from a re-analysis of the deposited data

Results flagged for a closer look

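The following genes had a Tbk1 difference after B-DNA that differed from their Tbk1 difference in the mock arrays, by limma on the 4 ratios of B-DNA to mock (adjusted p of 0.05 or less). Values are the difference of differences on the log2 scale. For Ifit2, Mx1, Cmpk2, Tlr3, Zbp1, Mndal, Cd274, Cxcl11 and Psmb9 all 4 mock arrays lay under the floor. The floor set their mock difference to 0, so their value equals the difference in level after B-DNA. No explanation was tested.

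Among antiviral effectors the value was -5.51 for Ifit1, -6.79 for Rsad2, -6.10 for Ifit3, -6.25 for Ifit2, -6.14 for Mx1, -5.90 for Cmpk2, -6.19 for Oasl1 and -3.75 for Rtp4. Among interferon-induced GTPases it was -6.12 for Iigp1, -5.55 for Igtp, -5.33 for Gbp2b, -5.33 for Irgm2 and -5.60 for Gbp2. For sensors of nucleic acid and related DNA-binding proteins it was -6.05 for Ifih1, -4.24 for Tlr3, -2.86 for Zbp1, -5.05 for Mndal and -3.72 for Ifi202b. In the Isg15, PARP and Trim groups it was -5.60 for Usp18, -2.64 for Uba7, -5.16 for Parp14, -3.65 for Parp9, -3.82 for Parp12 and -3.15 for Trim25. For interferon signalling genes it was -4.80 for Irf7, -2.85 for Stat2 and -3.11 for Socs1. For secreted and surface immune proteins it was -4.88 for Cxcl10, -5.11 for Ccl5, -4.0 for Cxcl11 and -4.84 for Cd274, and for antigen presentation -3.77 for Tap1, -3.34 for Psmb8, -3.64 for Psmb9 and -2.60 for Psmb10. It was -2.50 for Casp4, -2.17 for Daxx and -2.30 for Ccne1.

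On the positive side, the value was 1.83 for Jade1, 1.70 for Cdc42ep1, 2.45 for Cdr2l, 1.54 for Inhba and 1.43 for Morc4. The last 3 were not separated on levels after B-DNA: Cdr2l read 231 and 205 with Tbk1 and 351 and 238 without, beside mock values of 510.3 and 492 with Tbk1 and 105 and 100.5 without.

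The Tbk1 difference after B-DNA went opposite ways by 2-fold or more in the 2 Ikbke backgrounds for 3 named genes, and the difference between backgrounds was not tested. It was -1.73 in Ikbke+/+ cells and 1.95 in Ikbke-/- cells for Cxcl1, 1.11 and -4.21 for Arc, and 2.04 and -1.14 for Msmo1.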

How the results depend on the processing

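With 2 arrays per arm that also differ in Ikbke genotype, the spread is poorly known, and signals under the floor have no order. The 35 genes lower without Tbk1 became 26 to 47 under 10 settings, among them 26 on deposited values without scaling, 36 after quantile normalization and 37 with an Ikbke term. They became 62 with log2(signal + 32) in place of a floor, 5 with no filter, and 145 with all 8 arrays in the fit, where 23 were higher. Totals do not show how many of the 35 were kept. With no filter 3 of them were kept, on deposited values 24 and with the floor at the 20th percentile 25. With log2(signal + 32) 34 were kept, and with all 8 arrays 35. The 0 higher genes became 1 with the floor at the 20th percentile, 2 with log2(signal + 32) and 1 with no filter. Restricted to genes above the floor on all 4 arrays, 32 were lower, of which 10 were among the 35. Leaving out any 1 array gave 0 to 0 in either direction.

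For the ratios, 99 lower and 5 higher genes became 176 and 23 with an Ikbke term, 38 and 0 on deposited values, 41 and 1 with the floor at the 20th percentile, and 0 to 0 without any 1 genotype; after quantile normalization 3 were higher. On deposited values the median ratio difference of all genes was 0.32, against 0.05 after scaling. The 217 and 51 separated genes became 120 and 12 at 3-fold and 309 and 218 at 1.5-fold, and the higher ones 100 and 27 with the floor at the 20th and 60th percentile. Without 1 array the counts were 330 to 429 lower and 140 to 513 higher, as fewer arrays must be apart. No named gene changed sign while called; of its values under the alternatives 2115 kept their call, 158 lost it, 76 gained it and 41 untested ones moved.

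By replicate number, no paired analysis was possible because no group had more than 1 array and the numbers mark no shared culture. The fits with an Ikbke term, above, set the Tbk1 arrays against each other within each Ikbke background.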
